A study of Rattus norvegicus with 12 samples.

Results

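Of the 12 libraries of the series, the 6 from wounds under a polysaccharide dressing are described here, 3 with s-GAG and 3 with Alg. They were chosen by treatment alone and are set against each other by day: s-GAG against Alg on day 3, on day 7 and on day 14 after wounding. All 12 libraries are bulk RNA-seq of skin from diabetic wounds. Male Sprague-Dawley rats were made diabetic with streptozotocin and given a circular full-thickness punch wound on the back. s-GAG is a sulfated, heparin-like glycosaminoglycan purified from the mucus of the snail Achatina fulica and was applied in solution. Alg is a commercial alginate dressing, the positive control of the study, and the other wounds received dried snail mucus gel (d-SMG) or normal saline (control). The doses were therefore not matched between the dressings. There was 1 library for each treatment and day, and the sources used here do not say whether a library came from 1 animal or from a pool, nor whether the days are the same animals. Streptozotocin destroys the insulin-producing cells of the pancreas, so all groups, the control included, model insulin-deficient diabetes and not the common human form. The labelled tissue was checked against keratinocyte markers. The 10 genes of the basal keratinocyte list took between 0.974% and 2.54% of the reads in the 6 libraries, so keratinocytes were present in each.

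Alginate, a seaweed polymer of uronic acids without sulfate groups, is used on wounds because it takes up exudate and forms a gel. Sulfated glycosaminoglycans of the heparin type bind chemokines and growth factors. A skin wound passes through inflammation, new tissue formation and remodelling, and biopsies of its margin also hold tissue that was there before. In rodents this includes hair follicles, whose growing phase switches on hair keratins and inner root sheath proteins together, and a sheet of striated muscle under the dermis, the panniculus carnosus. In such bulk samples, fewer cells of a type and less RNA per cell cannot be told apart.

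The question here is on which days the 2 dressings gave near-equal tissue and on which they parted. Levels are given as CPM, read counts scaled to the library total and to TMM factors, and differences as the log2 of s-GAG over Alg, so that positive values mean higher with s-GAG. With 1 library a side there is no replicate spread and no test by day. Intervals in the text cover counting error only, and read totals of the 6 libraries ran from 14780071 to 38302461, the highest being s-GAG on day 7. On day 3 the s-GAG and Alg libraries were the closest of the 6 pairs of libraries of that day. Their median absolute log2 difference over 14154 genes was 0.27, and 91.4% of genes lay within 2-fold. On day 7 the value was 0.31 with 90.5% of genes within 2-fold, the second closest pair after control and d-SMG at 0.26. On day 14 it was 1.01, only 49.4% of genes lay within 2-fold, and the pair ranked 5 of 6. Spearman's rho across genes, which are not independent replicates, was 0.96 on day 3, 0.96 on day 7 and 0.79 on day 14.

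**Figure D1:**
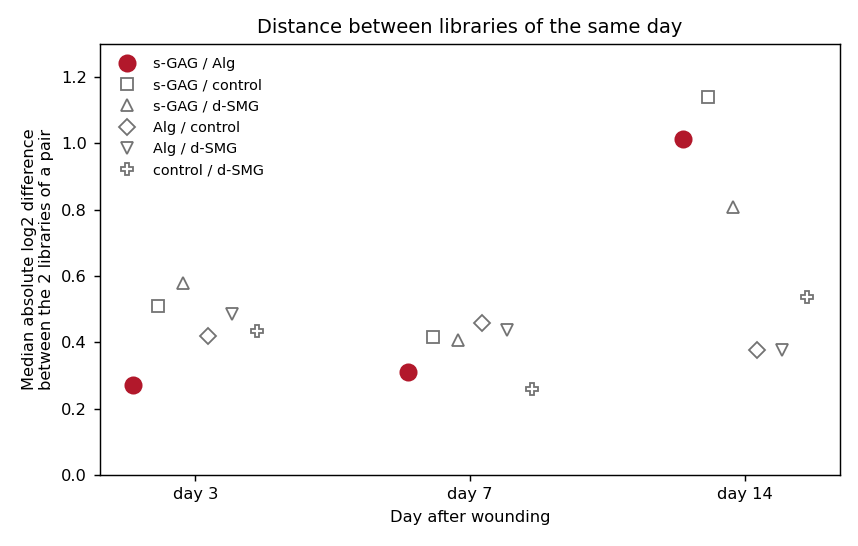
Median absolute log2 difference over 14154 genes (vertical axis) for each of the 6 pairs of libraries of the same day (horizontal axis), with the pair of s-GAG and Alg as filled red circles and the other pairs as open grey symbols. The red circle is the lowest on day 3 (0.27), the second lowest on day 7 (0.31) and the second highest on day 14 (1.01).

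The day 14 distance belonged to 1 library. The 3 pairs that hold the s-GAG day 14 library were the 3 farthest of that day, at 0.81 from d-SMG, 1.01 from Alg and 1.14 from control, whereas Alg stood at 0.38 from both d-SMG and control. Within s-GAG, day 3 and day 7 differed by 0.25, while day 14 differed by 0.95 from day 3 and by 0.94 from day 7. Within Alg the same 3 distances were 0.29, 0.33 and 0.43 for days 3 and 7, 3 and 14, and 7 and 14. Transcript length, as implied by the deposited counts and FPKM, moved with the day 14 difference. With genes cut into 5 equal groups by length, the median log2 difference was 1.05 in the shortest group and -1.04 in the longest, whereas the same groups stood at -0.11 and 0.07 on day 3 and at -0.02 and 0.13 on day 7. Against control the s-GAG day 14 library showed the same slope, 1.21 in the shortest group and -1.25 in the longest, and Alg against control ran from 0.15 to -0.14. The part of this slope in the day 14 results was not tested. Without that library there is no day 14 comparison of the dressings. Where a list is described on day 14 below, its count or median is therefore given both as measured and with the slope removed. Of the 130 named genes past 4-fold on day 14, 99 were so with the slope removed, and single-gene values below are as measured unless the slope is named.

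**Figure D2:**
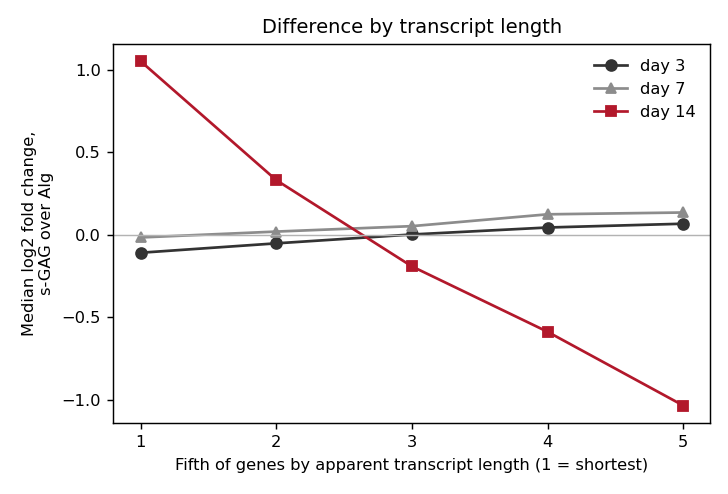
Median log2 fold change of s-GAG over Alg (vertical axis) in 5 equal groups of genes by apparent transcript length (horizontal axis, 1 the shortest), 1 line per day. The lines of day 3 and day 7 stay between -0.11 and 0.13, and that of day 14 runs from 1.05 to -1.04.

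On day 3, 248 of 13604 genes with a summed count of 50 reads or more over both libraries differed by 4-fold or more, which is 1.82%: 152 were higher with s-GAG (1.12%) and 96 with Alg (0.706%). On day 7 it was 302 of 14071 genes (2.15%), with 183 higher with s-GAG (1.3%) and 119 with Alg (0.846%). The day 7 lean to s-GAG depended on depth and filter: with reads thinned to the smallest library it was 128 with s-GAG and 114 with Alg, and without a filter 575 and 588. On day 14 it was 2398 of 13328 genes (18.0%), with 807 higher with s-GAG (6.05%) and 1591 with Alg (11.9%). The day 14 split depended on the scaling: scaled by library size alone it was 351 with s-GAG and 2375 with Alg, since that scaling moved the median of all tested genes to -0.53. With the length slope removed, an alternative chosen after seeing the data, 1631 genes were past 4-fold on day 14 (12.2%). Of the genes tested on both day 3 and day 7, 54 were past 4-fold on both, 25.5% of the day 3 genes and 21.6% of the day 7 genes, 35 in the same direction and 19 in opposite ones. Past 4-fold on both day 3 and day 14 were 90 genes, 49.5% of the day 3 genes and 3.96% of the day 14 genes, 35 in the same direction and 55 in opposite ones. For day 7 and day 14 it was 119 genes, 49.0% and 5.14%, of which 11 had the same direction and 108 opposite ones. No gene was past 4-fold in one direction on all 3 days. Past 4-fold on all 3 days with a turn were 37 genes: 28 higher with s-GAG on days 3 and 7 and with Alg on day 14, 8 higher with s-GAG on days 3 and 14 and with Alg on day 7, and 1 provisional gene in another pattern. The 28 included Tchh, Krt26, Krt27, Krt34, Krt86 and Krtap1-5, proteins of the hair and its sheath, and the 8 were Aqp4, Ddit4l, Dhrs7c, Ky, Mlf1, Myh7, Myl3 and Myoz3, which are genes of striated muscle or abundant in it.

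**Figure D3:**
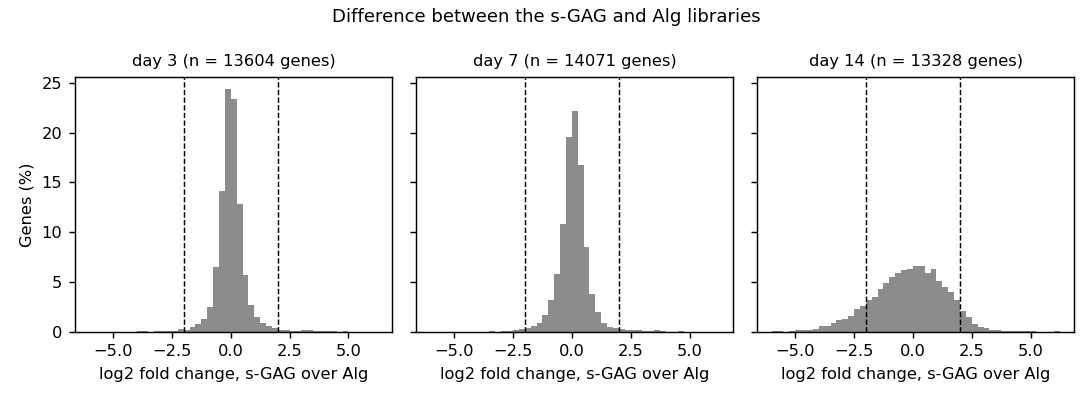
Share of tested genes (vertical axis, percent) by log2 fold change of s-GAG over Alg (horizontal axis, bins of 0.25, values beyond 6 drawn at the ends), 1 panel per day, with dashed lines at 4-fold. Days 3 and 7 leave 1.82% and 2.15% of genes outside the lines, and day 14 leaves 18.0%.

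Tested genes of the hair shaft and inner root sheath were higher with s-GAG on days 3 and 7 and mostly higher with Alg on day 14. Of the hair shaft keratins, which build the cortex and cuticle of the hair, 10 of 14 tested were at least 4-fold higher with s-GAG on day 3 and 12 of 13 on day 7, with medians of 2.58 and 3.52. On day 14, 10 of 15 were at least 4-fold higher with Alg, with a median of -2.99 (-3.49 with the length slope removed). Keratin-associated proteins, which cross-link those keratins, had 11 of 13 past 4-fold with s-GAG on day 3 and 15 of 15 on day 7. On day 14, 16 of 21 were past 4-fold with Alg (19 with the slope removed). The list held 29 genes, and the rest fell under the read filter. On day 7 it took 0.00701% of reads with s-GAG and 0.000415% with Alg. Its members thus passed the filter mostly through the higher library. So did the hair shaft keratins on day 7, when they took 0.0471% of reads with s-GAG and 0.00299% with Alg. The counts of both lists are therefore no independent evidence of a direction. The inner root sheath, which moulds the growing hair, went 4 of 9 with s-GAG, 9 of 9 with s-GAG and 6 of 9 with Alg (5 of 9 with the slope removed). The medians of all tested genes were -0.01, 0.07 and -0.07 on the 3 days. Copies within these keratin families are alike in sequence, so reads may be split between members.

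Trichohyalin, Tchh, the main protein of the inner root sheath, stood at 7985, 6541 and 1486 CPM with s-GAG on days 3, 7 and 14. With Alg it stood at 1957, 328 and 35405 CPM, which makes 4.08-fold and 19.9-fold more with s-GAG on days 3 and 7 and 23.8-fold more with Alg on day 14. Control wounds held 19.8, 67.1 and 2318 CPM, so the day 3 levels of both dressings were above control, and the day 14 level with Alg was the highest of the 12 libraries. Krt34, a hair cortex keratin, followed the same course, with 37.0, 11.4 and 21.9 CPM under s-GAG and 2.07, 1.52 and 367 CPM under Alg. Krt86 did so too, from 87.1, 25.6 and 38.0 CPM with s-GAG and 7.40, 3.71 and 550.5 CPM with Alg. Krt85, a keratin of the early hair shaft, stood at 209, 119 and 284 CPM with s-GAG and at 93.9, 2.59 and 544 CPM with Alg. Its day 7 level with Alg rested on 39 reads, and the log2 difference was 5.51 (95% interval 5.08 to 6.02). On day 14 Krt85 differed less, 1.92-fold higher with Alg, and so did not share the turn of Krt34 in size. Mt4, a metallothionein of stratified epithelia, had the largest day 7 difference among named genes with at least 200 reads, 54.6 CPM with s-GAG and 0.464 with Alg, and was near equal on day 3 at 91.3 and 82.7 CPM. Krt73 and Krt28, both of the inner root sheath, were 33.9-fold and 32.4-fold higher with s-GAG on day 7. Krt28 was higher with s-GAG on day 14 as well, at 124 against 66.4 CPM, so the turn did not hold for each sheath keratin.

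The promoter of Krt85 is shown because hair keratins moved together and the LEF1/TCF factors of the Wnt pathway are known regulators of hair keratin genes. Promoters are RefSeq windows of the GRCr8 assembly, from 250 bases before to 50 after the start site. Of the 54 listed hair shaft, keratin-associated and inner root sheath genes, 44 had an entry. The letters CTTTGA, on either strand, occurred in 14 of the 44 (31.8%) and in 15.8% of all 27457 promoters. The window of Krt85 is chr7:134515737-134516036, minus strand, with the match in capitals.
Krt85: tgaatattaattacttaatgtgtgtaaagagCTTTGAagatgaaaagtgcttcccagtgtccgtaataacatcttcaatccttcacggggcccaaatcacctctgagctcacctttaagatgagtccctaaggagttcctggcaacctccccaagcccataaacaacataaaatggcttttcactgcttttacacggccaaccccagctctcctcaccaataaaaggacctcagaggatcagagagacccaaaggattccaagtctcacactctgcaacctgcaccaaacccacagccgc
Such a match is a description of the sequence and not a binding site.

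**Figure D4:**
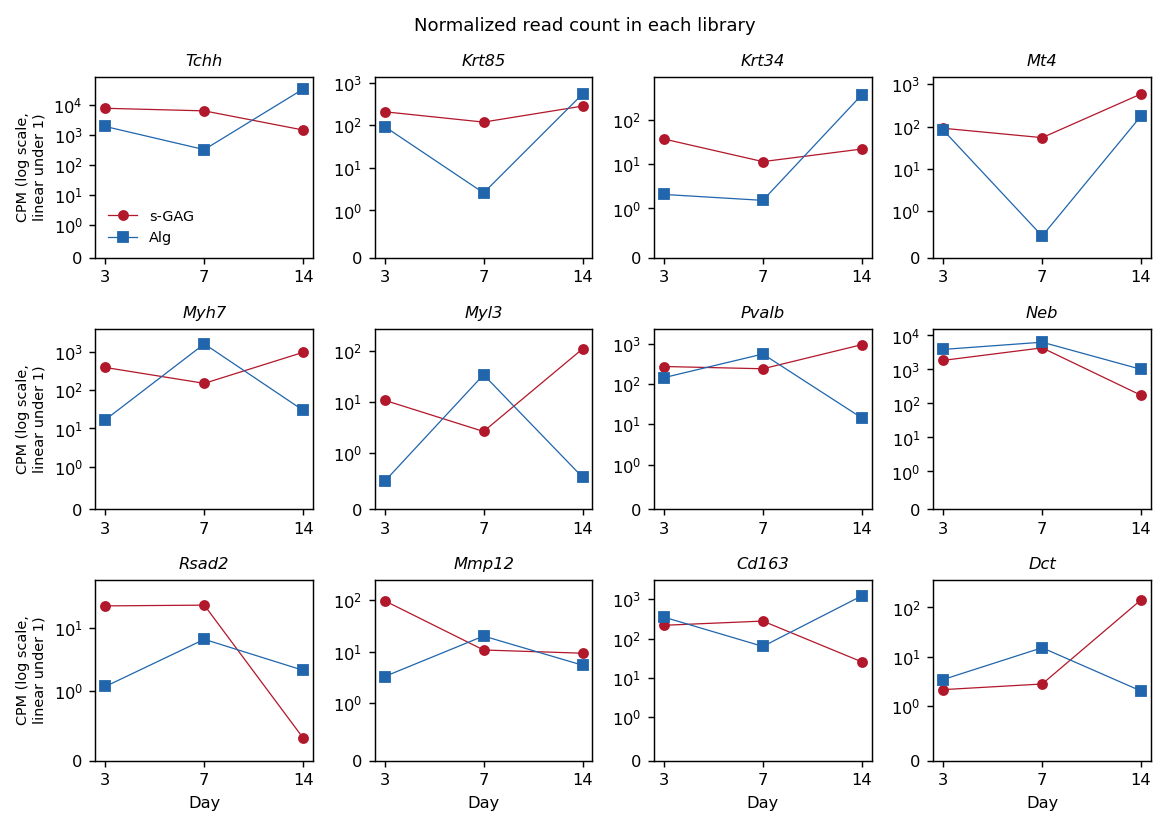
Normalized read count in CPM (vertical axis, log scale that is linear under 1) of 12 genes in each of the 6 libraries by day (horizontal axis), s-GAG as red circles and Alg as blue squares, 1 library a point, with lines only to guide the eye. Tchh and Krt34 cross between day 7 and day 14, Myh7 and Myl3 cross between each day and the next, and Rsad2 and Mmp12 lie higher with s-GAG on day 3.

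Regulators of the follicle parted on 1 day. Of the listed transcription factors and signals, 0 of 12 passed 4-fold on day 3 (median 0.28) and 0 of 12 on day 14 (median 0.35, and 0.72 with the slope removed). On day 7, 7 of 11 were at least 4-fold higher with s-GAG (median 2.53), against 1.3% of all tested genes. The list then took 0.0177% of reads with s-GAG, the deepest library, and 0.00503% with Alg. Its members thus passed the filter mostly through s-GAG, so the count is no independent evidence of a direction. Dlx3, a homeobox factor needed for hair shaft formation, stood at 20.9, 18.0 and 29.5 CPM with s-GAG and at 15.4, 0.53 and 26.6 CPM with Alg. The low value was that of Alg on day 7, and on days 3 and 14 the dressings were within 1.35-fold. Msx2, which acts in hair shaft differentiation, stood at 14.9, 12.6 and 41.1 CPM with s-GAG and 12.8, 1.33 and 17.4 CPM with Alg. Shh, the sonic hedgehog signal of the follicle epithelium, was 8.42-fold higher with s-GAG on day 7, with 8 reads behind the Alg value, and within 1.55-fold on the other days. In the control wounds Dlx3 was at 0.51, 0 and 1.75 CPM, below every s-GAG value.

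Skeletal muscle was near equal or higher with s-GAG on day 3, higher with Alg on day 7 and higher with s-GAG on day 14. The fast muscle list, contractile and calcium-handling genes of fast fibres, took 4.60% of reads with s-GAG and 4.32% with Alg on day 3. Its shares were 4.61% with s-GAG and 14.0% with Alg a few days later, on day 7, and 9.73% and 1.26% at day 14. Its median log2 difference was 0.47, -1.47 and 3.93 on the 3 days, and 1, 4 and 10 of 12 genes were past 4-fold, those of day 7 with Alg and the others with s-GAG. The slow muscle list had medians of 1.38, -1.19 and 4.15, with 3 of 10 past 4-fold with s-GAG on day 3, 3 of 10 with Alg on day 7 and 7 of 10 with s-GAG on day 14 (6, with a median of 3.18, with the slope removed). In the control wounds the fast list took between 5.81% and 8.13% of reads, and in the d-SMG wounds between 0.673% and 16.7%, so this share varied widely in the series. How much muscle each biopsy held was not measured, and its part in the muscle values cannot be told apart from the dressing.

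Myh7, the slow myosin heavy chain, stood at 393, 151 and 978 CPM with s-GAG and at 16.9, 1622 and 29.6 CPM with Alg. It was thus higher with s-GAG on days 3 and 14, by 23.2-fold and 32.9-fold, and with Alg on day 7, by 10.7-fold. Myl3, the slow myosin light chain, showed the same order in fewer reads, 10.8, 2.62 and 110.3 CPM with s-GAG and 0.494, 34.2 and 0.567 CPM with Alg. Aqp4, the water channel of fast fibres, stood at 9.35, 1.12 and 24.9 CPM with s-GAG and at 1.18, 54.0 and 0.693 CPM with Alg. On day 3 the fast genes went both ways, 10 of 12 higher with s-GAG, but Myh4, the fastest myosin heavy chain, was at 11109 CPM with s-GAG and 18815 CPM with Alg. On day 7 it was 4.58-fold higher with Alg, and on day 14 it was 6.37-fold higher with s-GAG. Pvalb, the calcium buffer parvalbumin, reached the widest difference of the fast list on day 14, 961 CPM with s-GAG and 14.4 CPM with Alg, a log2 difference of 6.05 (95% interval 5.87 to 6.25).

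Most muscle genes were higher with s-GAG on day 14, 12 of 12 in the fast list and 9 of 10 in the slow list. In the list of any fibre type it was 9 of 12, with 7 past 4-fold with s-GAG and 1 with Alg. With the length slope removed, 9 were past 4-fold with s-GAG and 0 with Alg. Acta1 and Neb, both of that list, differ in length and went opposite ways. Acta1, skeletal actin, with an apparent length of 1571 bases, was at 4747 CPM with s-GAG and 431 CPM with Alg on day 14, 11.0-fold higher with s-GAG. Neb, the giant thin-filament protein nebulin, with an apparent length of 25680 bases, was 5.81-fold higher with Alg in the same libraries, at 174 and 1009.8 CPM. Both genes belong to the same fibres, and on day 7 both were higher with Alg, by 2.17-fold and 1.47-fold. With the length slope removed, 11 of 12 genes of the fast list were past 4-fold with s-GAG on day 14, with a median of 3.38, Acta1 stood at a log2 of 2.69 and Neb at -1.30, no longer past 4-fold. The Acta1 promoter is shown because actin is a textbook target of serum response factor through the CArG box, which occurs in 3 of the 28 muscle list promoters with an entry, of 34 genes listed, against 1.64% of all promoters. The MEF2 core, CTA and TAG set 4 bases apart, occurred in 4 of the 28 and in 3.83% of all. The window is chr19:68784145-68784444, minus strand, with the CArG box in capitals.
Acta1: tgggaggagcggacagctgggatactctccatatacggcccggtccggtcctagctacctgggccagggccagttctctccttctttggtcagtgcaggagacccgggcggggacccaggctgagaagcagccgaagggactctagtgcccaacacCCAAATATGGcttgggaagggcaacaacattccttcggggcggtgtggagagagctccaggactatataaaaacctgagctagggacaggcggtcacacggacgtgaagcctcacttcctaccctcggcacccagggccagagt

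Genes of muscle repair and denervation behaved apart from the fibre genes on day 3. Myog, the myogenin factor that drives myoblast differentiation, stood at 15.6, 42.7 and 7.47 CPM with s-GAG and 159, 39.4 and 12.6 CPM with Alg, a 10.2-fold lower level with s-GAG on day 3 and within 1.68-fold on the later days. Trim63, a ubiquitin ligase of muscle atrophy, stood at 44.4, 1165 and 83.1 CPM with s-GAG and 703, 154 and 218 CPM with Alg. It was 15.8-fold higher with Alg on day 3 and 7.57-fold higher with s-GAG on day 7. Ppp1r27, a phosphatase subunit, and Slc30a2, a zinc transporter, were low where Myog was low on day 3, at 1.98 against 44.9 CPM and 3.23 against 64.7 CPM. The myosin of late fetal and regenerating fibres, Myh8, ran the other way on day 3, higher with s-GAG by a log2 of 3.59 at 878 CPM, and the embryonic myosin Myh3 was 3.07-fold higher with s-GAG. For the whole list of 12 genes, 1 of the 9 tested was past 4-fold with s-GAG and 2 with Alg on day 3, with a median of -1.46.

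Interferon-stimulated genes parted on day 3. All 25 were tested and 25 lay above 0 on day 3, 11 of them past 4-fold with s-GAG and 0 with Alg, with a median of 1.70. On day 7 the median was 0.17 and 0 of 25 were past 4-fold. On day 14 it was -1.03, with 4 of 23 past 4-fold with Alg, and -0.78 with 3 past 4-fold with the length slope removed. Of all tested genes 11.9% were past 4-fold with Alg on day 14, so that count lay near the share of all genes. The list took 0.207% of reads with s-GAG and 0.0545% with Alg on day 3. Control wounds of that day held 0.646%, so both dressings lay below control, and d-SMG held 0.0257%.

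Rsad2, the antiviral enzyme viperin, stood at 22.8, 23.5 and 0.325 CPM with s-GAG and 1.18, 6.70 and 2.14 CPM with Alg. Day 3 was 18.5-fold apart (log2 interval 3.68 to 4.93), day 7 was 3.49-fold apart, and on day 14 s-GAG was the low library, with 5 against 34 reads. Mx1, a GTPase that blocks viral replication, stood at 156, 111 and 4.35 CPM with s-GAG and 16.6, 36.2 and 28.2 CPM with Alg, so that it too was past 4-fold with s-GAG on day 3 and with Alg on day 14. Irf7, the factor that amplifies the interferon response, was 11.2-fold higher with s-GAG on day 3 at 84.1 against 7.45 CPM, and within 1.27-fold later. Ifit1, which binds foreign RNA, was not in the list of interferon-stimulated genes, so the list counts do not include it. It did not follow its family on day 7: it stood at 18.7, 0.255 and 0.325 CPM with s-GAG and 0.247, 8.22 and 0.441 CPM with Alg. Its relative Ifit3 was 5.98-fold higher with s-GAG on day 3 and 2.67-fold higher on day 7. Cxcl10, a chemokine induced by interferon, was outside that list too. It stood at 7.43, 15.8 and 0.39 CPM with s-GAG and 0.691, 1.86 and 0.819 CPM with Alg, past 4-fold with s-GAG on days 3 and 7.

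The promoters of Rsad2 and Ifit3 are shown because the list moved together and its common control element has a known sequence. The core letters of the interferon-stimulated response element, GAAA and GAAA set 2 bases apart on either strand, occurred in 10 of the 16 list members with an entry (62.5%), against 3.77% of all promoters. The windows are chr6:48788071-48788370, minus strand, for Rsad2 and chr1:241527076-241527375, plus strand, for Ifit3, with the match in capitals. In both it lies on the other strand and so reads TTTC and TTTC.
Rsad2: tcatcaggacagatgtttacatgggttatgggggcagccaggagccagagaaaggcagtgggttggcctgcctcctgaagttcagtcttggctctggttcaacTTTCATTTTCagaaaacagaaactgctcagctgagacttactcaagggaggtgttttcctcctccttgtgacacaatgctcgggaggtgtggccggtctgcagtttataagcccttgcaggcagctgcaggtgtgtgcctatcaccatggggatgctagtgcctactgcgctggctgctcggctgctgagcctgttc
Ifit3: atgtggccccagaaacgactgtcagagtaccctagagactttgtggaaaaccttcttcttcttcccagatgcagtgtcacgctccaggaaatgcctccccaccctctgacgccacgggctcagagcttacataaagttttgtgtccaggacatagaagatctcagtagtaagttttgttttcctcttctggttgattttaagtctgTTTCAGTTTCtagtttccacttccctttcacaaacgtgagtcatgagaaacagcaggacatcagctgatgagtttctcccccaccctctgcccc
Rn28s, a ribosomal RNA left after depletion, was the one gene among those named for day 3 that is not messenger RNA, with 12.5 CPM in s-GAG and 169.8 CPM in Alg.

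Genes of the general macrophage list stayed within 4-fold on days 3 and 7 and were lower with s-GAG on day 14. On day 3, 8 of 11 were higher with s-GAG, and the list took 0.174% of reads with s-GAG and 0.0990% with Alg. On day 7, 7 of 11 were higher with s-GAG, at 0.0909% and 0.0814% of reads. Of the 11 tested, 0 were past 4-fold on day 3 (median 0.45) and on day 7 (median 0.31), and 6 were past 4-fold with Alg on day 14 (median -2.23, and 7 with a median of -2.47 with the length slope removed). Adgre1, which encodes F4/80, stood at 16.0, 12.5 and 7.79 CPM with s-GAG and 12.3, 19.4 and 76.1 CPM with Alg. Cd68, a lysosomal protein of macrophages, stood at 51.0, 16.3 and 5.0 CPM with s-GAG and 29.0, 14.4 and 37.3 CPM with Alg. For both genes the Alg day 14 library was above its own earlier levels and the s-GAG day 14 library below them. Mmp12, the macrophage elastase, was not in that list and differed on day 3, at 96.9 CPM with s-GAG and 3.31 CPM with Alg, 28.8-fold apart. On days 7 and 14 it was within 1.86-fold.

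Cd163, the haemoglobin scavenger receptor of tissue macrophages, stood at 217, 278 and 25.5 CPM with s-GAG and 351, 63.0 and 1219.8 CPM with Alg. It was 4.41-fold higher with s-GAG on day 7 and 47.8-fold higher with Alg on day 14. Mrc1, the mannose receptor, had the same order at 143, 193 and 36.7 CPM with s-GAG and 200.0, 62.8 and 519 CPM with Alg. Nos2, the inducible nitric oxide synthase, was 4.71-fold higher with s-GAG on day 7 and 26.3-fold higher with Alg on day 14, where s-GAG had 3 reads (log2 interval -7.41 to -3.53). The list of classical activation had 5 of 5 tested genes above 0 on day 3 (median 1.03), 5 of 6 on day 7 (median 0.47) and 0 of 5 on day 14 (median -2.09, and -2.95 with the slope removed). The list of alternative activation was mixed, with 2, 3 and 2 of 6 above 0 on the 3 days (medians -0.45, 0.49 and -0.90, and -1.51 on day 14 with the slope removed). Neutrophil genes were sparse, with 5 of 12 tested. S100a9, a calcium-binding protein of neutrophils that keratinocytes also make, stood at 17.3, 25.5 and 14.0 CPM with s-GAG and 70.4, 44.3 and 110.2 CPM with Alg, higher with Alg on each day and past 4-fold on days 3 and 14. Lcn2, an iron-trapping protein, was 15.1-fold higher with Alg on day 3, 1.44-fold on day 7 and 9.26-fold on day 14.

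Of the 10 basal keratinocyte genes 0 were past 4-fold on days 3 and 7, with medians of 0.26 and 0.32, and 1 was past it in each direction on day 14, where values ran from -2.11 to 2.16 (1 with s-GAG and 0 with Alg with the slope removed). The suprabasal and barrier list had 13 of 13 genes above 0 on day 3, with 0 past 4-fold and a median of 1.13. On day 14, 7 of 14 were past 4-fold with Alg, with a median of -1.76, and 4 of 14 with a median of -1.39 once the length slope was removed. Krt10, a keratin of the differentiating layers, stood at 146, 106 and 121 CPM with s-GAG and 86.3, 140.1 and 1772 CPM with Alg. Its partner Krt1 stood at 167, 141 and 78.7 CPM with s-GAG and 110.5, 233 and 1406 CPM with Alg. On day 14 the Alg values lay near those of the control, 2317 CPM for Krt10 and 1641 CPM for Krt1, and the s-GAG values between Alg and d-SMG, which held 25.3 and 33.7 CPM. Casp14, a protease of cornification, was at 0.455 CPM with s-GAG and 35.2 CPM with Alg on day 14, from 7 and 559 reads. Loricrin, the main protein of the cornified envelope, was within 1.45-fold on that day. Krt17, a keratin of wounded epidermis and of follicles, was 4.03-fold higher with s-GAG on day 14, at 7380.1 against 1830.3 CPM (log2 2.01, and 1.29 with the slope removed), and within 2.18-fold before.

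**Figure D5:**
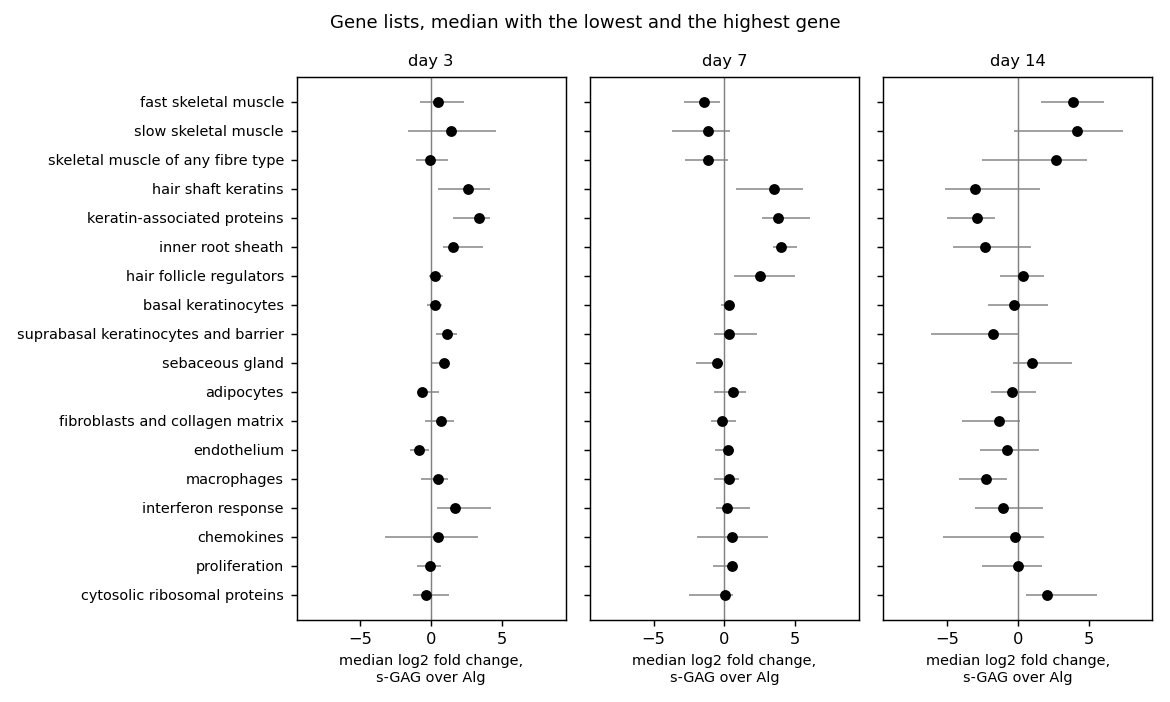
Median log2 fold change of s-GAG over Alg (horizontal axis) for 18 gene lists (vertical axis), 1 panel per day, with bars from the lowest to the highest gene tested. The hair shaft, keratin-associated and inner root sheath lists lie to the right on days 3 and 7 and to the left on day 14. The muscle lists lie to the left on day 7 and to the right on day 14.

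Of the 19 collagen and matrix genes tested, 0 were past 4-fold on day 3 or day 7. On day 3, 17 of 19 were higher with s-GAG (median 0.71), and on day 7, 4 of 19 (median -0.17). Their share of reads was 3.52% with s-GAG and 1.75% with Alg on day 3, and 1.44% and 1.81% on day 7. On day 14, 7 of 19 were past 4-fold with Alg (median -1.30), and 3 with the length slope removed (median -0.72). Col1a1, the main chain of type I collagen, stood at 6791, 2219 and 4416 CPM with s-GAG and 2939, 3541 and 3996 CPM with Alg. Col3a1, of the type III collagen that fills young wounds, stood at 8930.0, 3546 and 3135 CPM with s-GAG and 4071, 4889 and 7616 CPM with Alg. Both were over 2-fold higher with s-GAG on day 3 and turned to Alg on day 7, where neither dressing reached the control wounds at 15048 and 18247 CPM. Postn, the matricellular protein periostin, was 2.99-fold higher with s-GAG on day 3 and within 1.24-fold later.

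As one dressing is itself a glycosaminoglycan, the genes that make and break such chains were listed. Of 22 tested, 0 were past 4-fold on days 3 and 7, with medians of -0.13 and 0.26, and 2 were past it with Alg on day 14, with a median of -0.62 (-0.16 with the slope removed). This was a smaller share than the 11.9% of all tested genes past 4-fold with Alg that day. The 2 genes of the list were Cemip, which takes part in hyaluronan breakdown, at 0.649 CPM with s-GAG and 12.7 CPM with Alg, and Sulf1, which removes sulfate groups from heparan sulfate. Sulf1 stood at 72.3, 94.6 and 14.9 CPM with s-GAG and 179, 49.9 and 208 CPM with Alg, so Alg was higher on days 3 and 14 and s-GAG on day 7. Has1, a hyaluronan synthase, was 3.64-fold higher with Alg on day 3, from 29 and 124 reads. Hpse, the heparanase, was higher with Alg on each day but within 2.14-fold. A list of 15 genes held proteoglycans and the hyaluronan receptor. Acan, the cartilage proteoglycan aggrecan, which hair follicle sheaths also make, was its 1 gene past 4-fold on day 7. It stood at 11.4 CPM with s-GAG and 2.32 CPM with Alg, from 447 and 35 reads. On day 14 the 1 gene past 4-fold was Dcn, the proteoglycan decorin, at 232 CPM with s-GAG and 1319 CPM with Alg. That too was a smaller share than among all tested genes. The list median was 0.16 on that day. With the slope removed it was 0.20, 1 gene was past 4-fold in each direction, and Dcn stood at a log2 of -3.02.

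All 13 endothelial genes tested were below 0 on day 3, with 0 past 4-fold and a median of -0.85, and Pecam1, an adhesion molecule of endothelium, stood at 117, 164 and 83.4 CPM with s-GAG and 199.7, 117 and 165 CPM with Alg. On day 7 the median was 0.26, and on day 14 it was -0.74 with 2 of 13 past 4-fold with Alg (-0.61 and 1 with the slope removed). That day 14 count lay near the 11.9% of all tested genes past 4-fold with Alg. Lymphatic endothelial genes had 5 of 5 tested above 0 on day 7, 1 of them past 4-fold with s-GAG, and a median of 0.86, while on day 14 the median was -2.33 (-1.94 with the slope removed). Of the Schwann cell genes, 6 of 7 tested were below 0 on day 3 and 7 of 7 on day 7, with medians of -0.75 and -0.71, and 2 of 6 were past 4-fold with s-GAG on day 14, or 1 with the slope removed. Pigment cell genes were low in most libraries and high in 1, with 4 of 5 tested past 4-fold with s-GAG on day 14 with and without the slope. Dct, an enzyme of melanin synthesis, stood at 2.15, 2.80 and 143 CPM with s-GAG and 3.46, 15.2 and 2.02 CPM with Alg. Tyr, the tyrosinase that starts that pathway, had 371 reads in the s-GAG day 14 library and 0 with Alg, at least 127-fold higher with s-GAG against a floor of 3 reads, and 0 reads in both libraries of day 3.

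The study's text names 21 genes of inflammation, growth factors and matrix. This list was chosen on these samples and is no independent evidence of a direction. Of the 16 tested on day 3, 0 were past 4-fold (median 0.07), and of the 17 tested on day 7, 2 were, Cd163 and Nos2 with s-GAG (median -0.21). On day 14, 4 of 17 were past 4-fold with Alg, which were Cd163, Mrc1, Nos2 and Il1b, with a median of -0.30 (4 and -0.39 with the slope removed). Il1b, the inflammatory cytokine interleukin 1 beta, stood at 8.11, 8.91 and 6.23 CPM with s-GAG and 6.57, 8.49 and 26.7 CPM with Alg. The first 2 days were near equal, and the Alg day 14 library was the high one. Vegfa, the main growth factor of vessels, stood at 125, 121 and 41.9 CPM with s-GAG and 178, 136 and 107 CPM with Alg. Pdgfa, a growth factor for fibroblasts, was 1.53-fold and 1.47-fold higher with Alg on days 3 and 7 and 3.17-fold higher with s-GAG on day 14. Tgfb1, which drives matrix formation, was within 1.81-fold on each day. Arg1, an arginine-degrading enzyme of repair macrophages, was within 1.10-fold on days 3 and 7 and 2.30-fold higher with Alg on day 14. Col7a1, of the collagen that anchors the epidermis, Pdgfb, Il18, Jak3 and Tlr5 were within 1.91-fold on each day. Ccl5, a T cell chemokine, had 45 reads with s-GAG and 1 with Alg on day 3 (log2 interval 3.14 to 11.03), under the filter. Tnf, Il10 and Fgf3 had 36 reads or fewer in each of the 6 libraries and lay under the filter of 50 reads on each day.

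With the days taken as the replicates, the dressings could be tested once. In edgeR's quasi-likelihood test with day and treatment as terms over all 12 libraries, 0 of 16037 genes passed a Benjamini-Hochberg FDR of 0.05 (0.0%), the smallest FDR was 0.987, and 178 genes had an unadjusted p under 0.05. DESeq2 and limma with voom also called 0 genes, with 269 and 147 at an unadjusted p under 0.05. Without the s-GAG day 14 library the count was again 0, with 191 at an unadjusted p under 0.05. Among genes without a provisional symbol, those with the smallest p were Tm4sf4, higher with s-GAG, and Irak3, higher with Alg. Tm4sf4, a tetraspanin-like membrane protein, stood at 2.72, 1.96 and 13.8 CPM with s-GAG and 0.74, 0.133 and 3.53 CPM with Alg, higher with s-GAG on 3 of 3 days (log2 2.34, edgeR adjusted p = 0.987). Irak3, a brake on Toll-like receptor signalling, stood at 16.6, 18.2 and 7.21 CPM with s-GAG and 30.5, 27.8 and 26.7 CPM with Alg, higher with Alg on 3 of 3 days (log2 -1.10, edgeR adjusted p = 0.987). Arntl2, a circadian clock factor, was higher with Alg on 3 of 3 days as well, by 2.18-fold, 1.95-fold and 3.04-fold, with the same adjusted p of 0.987 from edgeR. A difference between the dressings that held over the days was not detected. In this fit a difference that changed with the day counted as spread, so the 0 genes do not show that the dressings were equal.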

How the data were processed

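Per the methods of the study, total RNA was extracted with TRIzol, depleted of ribosomal RNA and sequenced as paired reads of 150 bases in stranded libraries. The submitters' processing notes name bcl2fastq, FastQC, TopHat2 and edgeR, without versions. Which program counted the reads, the build and the strand setting are not given in the sources used here.

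The authors deposited raw read counts for 25620 genes and FPKM values (fragments scaled by transcript length and library total) for 25524 genes, 1 column per library. Each file also held 1 column that matched no sample and was not used. Columns of the authors' own comparisons were not used.

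Libraries were grouped by treatment and day from the labels. TMM factors came from all 12 libraries (edgeR 4.0.16, limma 3.58.1, DESeq2 1.42.0, R 4.3.3, Python 3.11.15). Log2 fold changes used a prior count of 1 read. A gene entered a comparison with a summed count of 50 reads or more over both libraries and was past 4-fold at an absolute log2 of 2. Distances used genes with a mean of at least 1 CPM. Apparent length was the ratio of counts to FPKM, and its trend was removed by lowess. Counting intervals are exact at 95%. Over the days, the quasi-likelihood test took day and treatment as terms, with each day's library standing for a replicate, so its p-values measure the spread between these libraries, which may hold technical spread.

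Named genes were the 5 largest differences per day and direction among genes reaching 200 reads in the higher of the libraries, the 3 smallest p-values per direction over the days, up to 4 members of a list, and the genes of the study's text. Members and gene lists were chosen with earlier results of these data known. Promoters were read from RefSeq.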

Additional observations from a re-analysis of the deposited data

Results flagged for a closer look

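Several gene lists had a median past 2-fold in one direction on one day and past 2-fold in the other direction on another day. With 1 library for each dressing and day, the difference between days was not tested. The median log2 differences of s-GAG over Alg were as follows. Fast skeletal muscle stood at -1.47 on day 7 and 3.93 on day 14. Slow skeletal muscle stood at 1.38 on day 3, -1.19 on day 7 and 4.15 on day 14, and the genes of any fibre type at -1.14 on day 7 and 2.72 on day 14. Hair shaft keratins stood at 2.58, 3.52 and -2.99 on days 3, 7 and 14. Keratin-associated proteins stood at 3.36, 3.79 and -2.89, and the inner root sheath at 1.54, 3.96 and -2.33. Suprabasal and barrier genes stood at 1.13 on day 3 and -1.76 on day 14. Interferon-stimulated genes stood at 1.70 on day 3 and -1.03 on day 14. Erythroid genes, the haemoglobins and their partners in red cells, stood at -2.17 on day 7 and 1.06 on day 14. With the length slope removed the day 14 median was 0.21 for the erythroid and -0.78 for the interferon genes, both within 2-fold, while the other lists named here stayed past 2-fold in their direction. Each of these day 14 values rests on the s-GAG library that stands apart in the distances, whose part in them was not tested.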

How the results depend on the processing

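Among the lists run, no direction of a median past 2-fold reversed under the alternatives, nor did that of a named gene past 4-fold. Lists with 5 or fewer genes tested were not run, apart from the slope removal given above. These include classical activation on days 3 and 14 and lymphatic endothelium on day 14. The numbers of genes past 4-fold moved with the filter and scale. On day 3 the 248 genes became 105 on FPKM with a pseudocount of 1, 476 and 138 with at least 10 and 200 reads, 852 without a filter, 1067 at 2-fold and 155 by edgeR's exact test with an assumed spread. On day 7 the 302 became 104, 586, 189, 1163, 1320 and 194 in the same order. On day 14 the 2398 became 1137 on FPKM, 3816 without a filter, 6752 at 2-fold and 3719 by the exact test. The median absolute log2 difference moved less. On day 3 it was 0.264 with a prior of 5 reads, 0.263 and 0.189 on FPKM with pseudocounts of 0.1 and 1, 0.262 without the length slope, 0.231 from 10 CPM up and 0.409 without a filter. On day 7 it was 0.338 by library size, 0.329 with TMM without the tissue lists, 0.304 with a prior of 5, 0.319 with reads thinned to the smallest library, 0.322 and 0.229 on FPKM, 0.298 without the length slope, 0.276 from 10 CPM up and 0.468 without a filter. On day 14 it was 1.06 by library size, 0.973 with a prior of 5, 0.980 and 0.665 on FPKM and 0.825 without the length slope, so day 14 stayed the widest under each setting run on all 3 days. On day 14, FPKM with a pseudocount of 0.1 split the genes into 331 with s-GAG and 2045 with Alg. Over the days the test called 0 genes under each alternative, with 114 to 314 genes at an unadjusted p under 0.05. Without the day term (no replicate block) it also called 0 genes, with 173 at an unadjusted p under 0.05. Leaving out 1 day called 0 genes each time. Of the named genes past 4-fold, 52 of 54 on day 3, 65 of 65 on day 7 and 99 of 130 on day 14 remained so without the length slope. The causes of these moves were not tested. With 1 library a side, counting intervals do not cover spread between animals.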

Other observations

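Of 72 cytosolic ribosomal protein genes tested, 0 were past 4-fold on day 3 (median -0.34), 1 with Alg on day 7 (median 0.02) and 38 with s-GAG on day 14 (median 2.03), where the list took 13.2% of reads with s-GAG and 4.33% with Alg. With the length slope removed, 2 of the 72 were past 4-fold on day 14. Nuclear genes of the respiratory chain had medians of 0.04, -0.22 and 1.12, and 0.15 on day 14 with the slope removed. Proliferation genes had medians of -0.09, 0.50 and 0.00. On day 14, 2 of 20 were past 4-fold, against 18.0% of all tested genes, and 10 of 20 lay on each side of 0. With the slope removed their day 14 median was -0.15, with 1 past 4-fold. The 10 housekeeping genes had medians of 0.12, 0.09 and 0.75, with 1 past 4-fold on day 14 and 0 with the slope removed. T and NK cell genes had a median of 1.12 on day 3, with 2 of 10 past 4-fold with s-GAG, and 0.23 and -0.02 on days 7 and 14. With the slope removed their day 14 median was -0.51. Sebaceous gland genes had medians of 0.90, -0.51 and 0.99 (0.86 on day 14 with the slope removed), all 9 tested lying above 0 on day 3 and below 0 on day 7.

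Other genes with the largest differences of a day were these. C1qtnf3, a secreted relative of complement C1q, was at 19.9 CPM with s-GAG and 0.889 with Alg on day 3. Neu2, a sialidase, was at 9.58, 0.84 and 5.78 CPM with s-GAG and 0.296, 14.3 and 1.89 with Alg on days 3, 7 and 14. Aldh1a7, an aldehyde dehydrogenase, was at 14.3, 0.687 and 5.78 CPM with s-GAG and 0.938, 13.6 and 7.82 with Alg. Gnl3l, a nucleolar GTPase, was at 76.6, 109.5 and 1.04 CPM with s-GAG and 86.6, 73.9 and 118 with Alg, so that the s-GAG day 14 library alone was low. Dsc3, a desmosomal cadherin of the epidermis, was at 148, 206 and 3.90 and 82.7, 106 and 189 CPM in the same order and was low in that library as well. Lyg2, a lysozyme-like gene, had 1 read with s-GAG and 604 with Alg on day 14 (log2 interval -14.50 to -6.71), and 60 reads with s-GAG and 0 with Alg on day 3. Hhatl, which is abundant in muscle, was at 35.9 CPM with s-GAG and 0.315 with Alg on day 14. Ces1e, a carboxylesterase, had 392 and 3 reads on that day (log2 interval 5.51 to 9.36).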
